A study of Mus musculus with 3 samples.

Results

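The SOX2-OFF-only regions were stretches of accessible chromatin that were called as peaks in SOX2-OFF cells and in neither of the other 2 samples of the study. They were chosen by peak calls. All rows of the 3 deposited peak lists were merged where they overlapped or touched, on the 16 autosomes other than chromosomes 6, 8 and 11, and a merged region was kept when the SOX2-OFF list covered it and the SOX2-ON and CEpiLC lists did not. The rule kept 19256 of 144115 merged regions (13.4%). Because the calls chose them, their fold enrichment and significance in SOX2-OFF are given below as a description, and only sequence, position and neighbouring genes, which the rule did not use, are compared with other regions.

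The data came from ATAC-seq, in which Tn5 transposase inserts adapters into accessible DNA, on mouse cells of the HM1 (129) background at 72 h of differentiation. SOX2-ON and SOX2-OFF were the same Sox2-/- SOX2 TetON embryonic stem cell line, in which the only source of SOX2 is a doxycycline-inducible transgene at the Hprt locus driven by rtTA from Rosa26. Doxycycline (1 µg/ml) was in the stem cell medium of both. It was maintained during differentiation in SOX2-ON and withdrawn in SOX2-OFF, whereas the remaining sample was wild-type caudal epiblast-like cells (CEpiLC) that received none. For the first 2 days every culture received bFGF at 10 ng/ml together with the WNT secretion inhibitor LGK974 at 5 µM, and the GSK3 inhibitor CHIR99021, a WNT pathway agonist, was then added until day 3. There was 1 sample per condition, so the condition and the single library cannot be told apart, and against CEpiLC neither can SOX2 loss and the cell line. No test between conditions was possible, and every interval below is a 95% interval that covers counting error over regions only.

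In the textbook view, WNT stabilizes β-catenin, which binds DNA through the TCF/LEF factors, and in the epiblast this activates the T-box factors T and Eomes and the mesendoderm genes of the primitive streak. SOX2 is an HMG-box factor whose recognition sequence resembles that of TCF/LEF, and it maintains pluripotent and neural states. AP-1 factors (the Jun and Fos families) bind to many enhancers that open in response to signals. Opening of chromatin at such elements, mostly far from promoters, is how a change of cell state is usually seen in ATAC-seq.

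On these autosomes the SOX2-OFF list held 86563 peaks, the SOX2-ON list 85388 and the CEpiLC list 95025, all with −log10 q of at least 1, the value at which the lists end. In SOX2-OFF 40.0% of peaks reached −log10 q of 5, against 43.9% in SOX2-ON and 24.0% in CEpiLC. Read depth was not given, but the background pileup implied by fold enrichment and p under a Poisson model, approximate for broad peaks whose values are averages, had a median of 47.6 reads in the SOX2-OFF-only regions, 39.6 in the SOX2-ON-only and 29.7 in the CEpiLC-only regions. The part that this difference played in the rule was not tested. The SOX2-OFF list had peaks within 1 kb of the starts of T, Mixl1 and Eomes (streak) and of Pou5f1 and Fgf5 (epiblast), as did the other 2 lists. Of 8 fibroblast marker starts, chosen because the stem cells were propagated on embryonic fibroblast feeders, 5 had a SOX2-OFF peak, 4 a SOX2-ON peak and 5 a CEpiLC peak. None of the lists had a peak at Col3a1, Postn or Lum. The SOX2-OFF peaks were at Thy1 (−log10 p 54.5), Twist2 (22.5), Dcn (14.4), Pdgfrb (10.2) and Col5a2 (3.82). CEpiLC had peaks at the same starts, and SOX2-ON at all of them but Dcn.

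The sequences below show members with and without matches to motifs that the results turn on, TCF/LEF (letters ATCAAAG), AP-1 (TGANTCA) and T-box (AGGTGTGA), each searched on both strands. Each is the central 200 bp of a member, read from the RefSeq copy of GRCm38 (the same assembly as mm10) on the plus strand, 5′ to 3′. Capitals mark matches to those motifs and to the GATA motif (AGATAAG or TGATAAG). A strong member with a TCF/LEF match, in a window mostly outside soft-masked sequence, lay at chr1:86493851-86494400, 32326 bp from the start of Ptma, and has a single match.
chr1:86494026-86494225: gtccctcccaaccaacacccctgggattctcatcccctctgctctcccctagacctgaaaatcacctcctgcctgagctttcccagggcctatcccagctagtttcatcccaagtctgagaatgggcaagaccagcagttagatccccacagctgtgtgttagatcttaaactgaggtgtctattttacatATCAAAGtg
The strongest T-box member shown lay in an intron of Fam135a, with an AP-1 match beside it.
chr1:24047175-24047374: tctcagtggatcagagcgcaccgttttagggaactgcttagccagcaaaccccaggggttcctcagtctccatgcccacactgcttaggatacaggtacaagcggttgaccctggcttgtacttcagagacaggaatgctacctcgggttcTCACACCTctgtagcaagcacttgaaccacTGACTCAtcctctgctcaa
The strongest member near Gsc, a homeobox gene of the organizer, lay 28538 bp upstream of the gene and holds 2 T-box matches and a GATA match.
chr12:104501869-104502068: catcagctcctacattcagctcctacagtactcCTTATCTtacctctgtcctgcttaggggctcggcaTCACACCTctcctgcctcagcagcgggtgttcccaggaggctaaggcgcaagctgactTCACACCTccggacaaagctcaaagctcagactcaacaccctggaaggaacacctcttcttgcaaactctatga
The strongest member of the whole set and the strongest in Tcf7l2, which encodes a TCF/LEF factor, are shown because neither holds any of these matches in this window, which says only that these letters are not there.
chr16:91534747-91534946: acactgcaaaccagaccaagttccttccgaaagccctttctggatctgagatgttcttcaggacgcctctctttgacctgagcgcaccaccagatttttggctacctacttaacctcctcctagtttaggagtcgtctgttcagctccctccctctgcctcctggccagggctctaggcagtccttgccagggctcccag
chr19:55875424-55875623: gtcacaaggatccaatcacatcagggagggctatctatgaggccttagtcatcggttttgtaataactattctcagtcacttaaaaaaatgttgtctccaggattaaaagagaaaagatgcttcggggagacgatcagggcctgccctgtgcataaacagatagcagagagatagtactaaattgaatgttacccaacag

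The members were mostly small, weak peaks. Their median width was 390 bp (10th to 90th percentile 222 to 913), their median fold enrichment 1.499 (1.44 to 1.66) and their median −log10 p 3.26 (2.75 to 5.01). The median pileup implied by these values was 72.8 reads over a background of 47.6. Of the 19256 members, 13127 (68.2%) had −log10 q under 2, 717 (3.72%) reached 5 and 104 (0.540%) reached 10. The weaker a SOX2-OFF peak, the more often it was found in no other list. Of 13519 SOX2-OFF regions with −log10 q between 1 and 1.5, 7678 (56.8%) were members, which fell to 27.9% between 2 and 3 and to 104 of 22652 (0.459%) at 10 or more. This order comes from the calls that chose the members and is no finding about them. SOX2-ON had more strong regions of its own, with 5280 at −log10 q of 5 or more and 2507 at 10 or more in its own list, and CEpiLC fewer, with 202 and 25. These counts also come from the calls and are a description only. The lists differed in the share of all their peaks that reached 5, as given above.

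**Figure D1:**
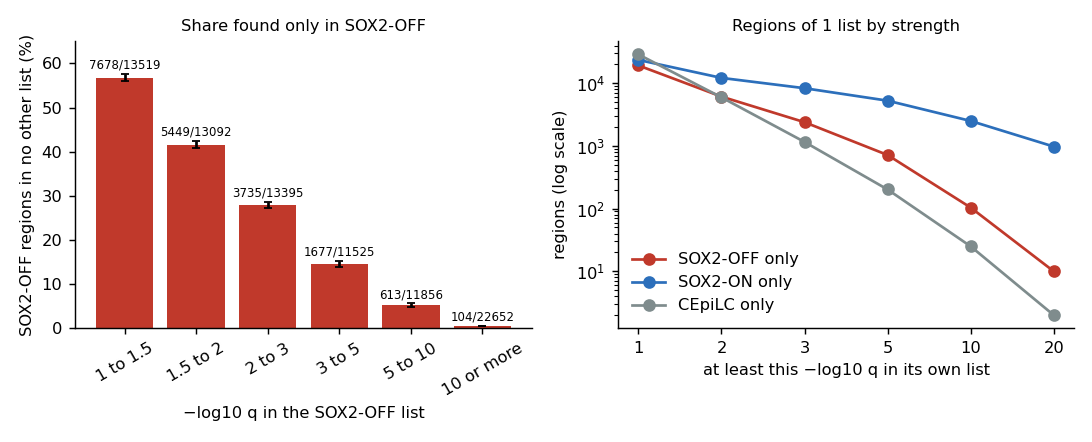
Left, bars give the share of SOX2-OFF regions found in no other list (%), by −log10 q in the SOX2-OFF list, with Wilson 95% intervals and the counts above each bar; the share falls from 56.8% to 0.459%. Right, points give the number of regions found in 1 list only (log scale) that reach each −log10 q in that list, for SOX2-OFF (717 at 5), SOX2-ON (5280) and CEpiLC (202).

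The edge of the rule lay among weak and near neighbours. The nearest peak of another list was 3138 bp away in the median (quartiles 1322 and 7640 bp), 624 members (3.24%) lay within 100 bp of one, 3460 (17.97%) within 1 kb and 457 (2.37%) beyond 50 kb. The 624 members just inside the rule had a median −log10 q of 1.51. Just outside it stood 695 regions that were left out although peaks of the other lists covered under 10% of their SOX2-OFF bases, and their median −log10 q was 1.61. The nearest CEpiLC peak (median 4604 bp) lay closer than the nearest SOX2-ON peak (5372 bp), and the CEpiLC list was also the longer of the 2.

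A single member stood far apart from the rest in strength. It lay between genes at chr16:91534631-91535063, 12009 bp from the start of Ifngr2, an interferon gamma receptor chain, with a fold enrichment of 8.68 and −log10 p of 289. The nearest SOX2-ON peak was 1849 bp away and the nearest CEpiLC peak 1766 bp. The second member in rank, at chr15:78753166-78753483, 13681 bp from the start of Mfng, a glycosyltransferase that modifies Notch receptors, had a fold of 3.32 and −log10 p of 38.4. Next in rank came an intron of Baalc (chr15:38942133-38943016, fold 3.00, −log10 p 31.5).

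Several of the other leading members were repeated sequence. The next, at chr12:3127207-3128408 (fold 3.03, −log10 p 30.7), was 71.0% soft-masked and matched the reference at 36 places at 90% identity or more over at least 50% of its length, itself included. It was followed by one in an intron of Tnik (chr3:28520504-28520807, 2.87 and 25.9), which was 97.7% soft-masked and matched at 25695 places. A further leading member (chr5:89639265-89639956, 2.78 and 23.9) matched at 27. Those 50496 bp from the start of Gsk3b, which encodes a kinase that CHIR99021 inhibits (chr16:38037275-38038505, 2.74 and 25.8), and in an intron of the ubiquitin ligase gene Hace1 (chr10:45591034-45592354, 2.78 and 24.2), matched at 3 places each. Reads from such copies cannot be placed with certainty. Of the 10 strongest members, 5 matched only themselves, the 3 strongest among them. The other 2 lay 95107 bp from the start of Cpa6 (chr1:10815052-10816094, 2.68 and 24.3) and 5470 bp from that of Mrln, which encodes a muscle micropeptide (chr10:70222367-70223178, 2.63 and 22.4).

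Most members lay in introns or between genes. Of the 19256, 8162 (42.4%, 41.7 to 43.1) lay in introns, 6687 (34.7%, 34.1 to 35.4) between genes up to 100 kb from the nearest, 2117 (10.99%) over exons and 352 (1.83%) farther than 100 kb from any gene, all beyond 1 kb of an annotated start. The remaining 1938 (10.1%, 9.65 to 10.5) lay within 1 kb of a start, against 37.6% of the 44977 regions found in all 3 lists, a difference of −27.5 percentage points (−28.1 to −26.9). Among regions with −log10 q under 2 the gap narrowed to 10.5% against 18.3%, a difference of −7.83 points (−9.08 to −6.62). Distances ran from the edges of the merged regions, and width was not matched. Over all strengths the median width was 1351 bp in regions of all 3 lists and 390 bp in members, and the part of width was not tested. The other single-list sets were close to the members. The share within 1 kb of a start was 8.76% in SOX2-ON-only regions, 1.31 points lower (interval of the difference 0.753 to 1.87), and 9.65% in CEpiLC-only regions, where the difference of 0.411 points had an interval from −0.131 to 0.958. Of the 1938 members near a start, the nearest start was that of a protein-coding gene in 1193 (61.6%), of a long non-coding or antisense RNA in 259 (13.4%) and of a pseudogene in 257 (13.3%).

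**Figure D2:**
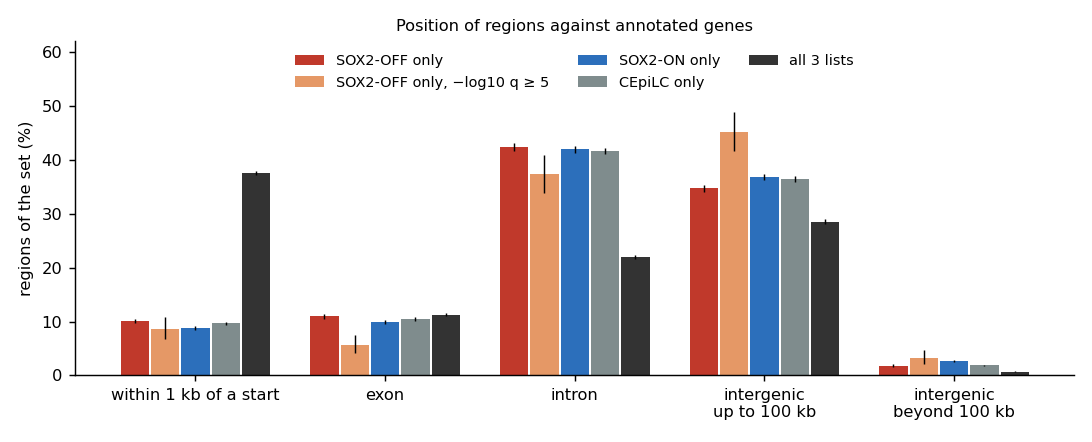
Bars give the share of each set of regions (%) by position against annotated genes, with Wilson 95% intervals. Members (SOX2-OFF only) were at 10.1% within 1 kb of a start and 42.4% in introns, near the SOX2-ON-only and CEpiLC-only sets, whereas regions in all 3 lists were at 37.6% and 22.0%; strong members were at 45.2% between genes.

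The strong members, those with −log10 q of 5 or more, were more often intergenic than the weak ones. Of 717, 324 (45.2%, 41.6 to 48.9) were intergenic within 100 kb and 40 (5.58%, 4.12 to 7.51) exonic, whereas of the 13127 members under −log10 q of 2, 32.9% (32.1 to 33.7) were intergenic and 11.9% (11.3 to 12.5) exonic. The strongest member near a start was at chr12:54730271-54730555, 669 bp from the start of Gm26444 and 93.3% soft-masked (fold 2.54, −log10 p 20.8). The next were at chr9:119265408-119266787, 636 bp from a start of the kinase gene Oxsr1 (2.42 and 20.3), and at chr12:119390229-119390705, over a start and untranslated region of Macc1 (2.42 and 16.2). Over exons the strongest was in Col4a4, a basement membrane collagen gene (chr1:82451980-82452266, 2.26 and 14.3), followed by exons of the non-coding Gm48610 (chr12:4572028-4572779, 2.17 and 13.4) and 6030469F06Rik (chr12:31174913-31176213, 2.23 and 13.2). Beyond 100 kb of any gene they were at chr1:194443652-194444247 (2.37 and 16.4), 173971 bp from Plxna2, at chr14:88978645-88979399 (2.32 and 14.3), 507249 bp from Pcdh20, and at chr1:109229400-109229881 (2.23 and 13.1), 752550 bp from Cdh7, the distances being to the nearest coding start.

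The members were close to the SOX2-ON-only regions in base composition. Their median GC content in the central 200 bp was 48.0% (quartiles 43.5 and 52.0), against 47.5% in SOX2-ON-only, 50.5% in CEpiLC-only and 53.0% in regions of all 3 lists, and their median soft-masked share was 11%. Strong members were somewhat poorer in GC (median 46.5%) and more often mostly soft-masked, with 158 of 717 (22.0%) at 50% or more of the window against 14.5% of the members under −log10 q of 2. The mean number of CpG dinucleotides in the window was 2.27 in members and 6.92 in regions of all 3 lists.

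Matches to the TCF/LEF motif became more common as members became stronger. A match lay in the central 200 bp of 279 of 7678 members with −log10 q between 1 and 1.5 (3.63%, 3.24 to 4.08), in 4.69% between 2 and 3, in 5.61% between 3 and 5, in 60 of 613 between 5 and 10 (9.79%, 7.68 to 12.4) and in 13 of 104 at 10 or more (12.5%, 7.45 to 20.2). In regions of all 3 lists the share stayed between 2.58% and 3.49% over the same bands of the same list, and over all merged regions it was 3.37%. The letters of the motif read backwards, a control for base composition, were found in 2.25% of all members and 2.93% of the strong ones, but in 6.73% of the 104 strongest. Between the members and the regions of all 3 lists in the band from 5 to 10 the difference was 6.30 points, with an interval of 2.88 to 11.1 after widening for 64 comparisons (16 motifs in 4 pairs of sets).

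AP-1 and T-box matches followed the same order. AP-1 matches rose from 6.47% (5.94 to 7.05) in the weakest band to 14.0% (11.5 to 17.0) between 5 and 10 and to 19 of 104 (18.3%, 12.0 to 26.8) at 10 or more, and stood at 6.53% over all merged regions, 14.6% in all strong members and 4.18% in them read backwards. T-box matches were rarer, with 1.22% (1.00 to 1.496) in the weakest band, 16 of 613 (2.61%, 1.61 to 4.198) between 5 and 10 and 5 of 104 at 10 or more, against 1.15% over all merged regions. The SOX motif (ACAATGG or ACAAAGG, the latter sharing CAAAG with TCF/LEF) stayed between 6.96% and 9.62% in all 6 bands with overlapping intervals, beside 8.80% over all merged regions. In all, 184 of 717 strong members (25.7%) held at least 1 TCF/LEF, AP-1 or T-box match, against 1516 of 13127 under −log10 q of 2 (11.5%). TCF/LEF and AP-1 matches occurred together in 10 strong members, TCF/LEF and T-box in 1, and AP-1 and T-box in 4.

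**Figure D3:**
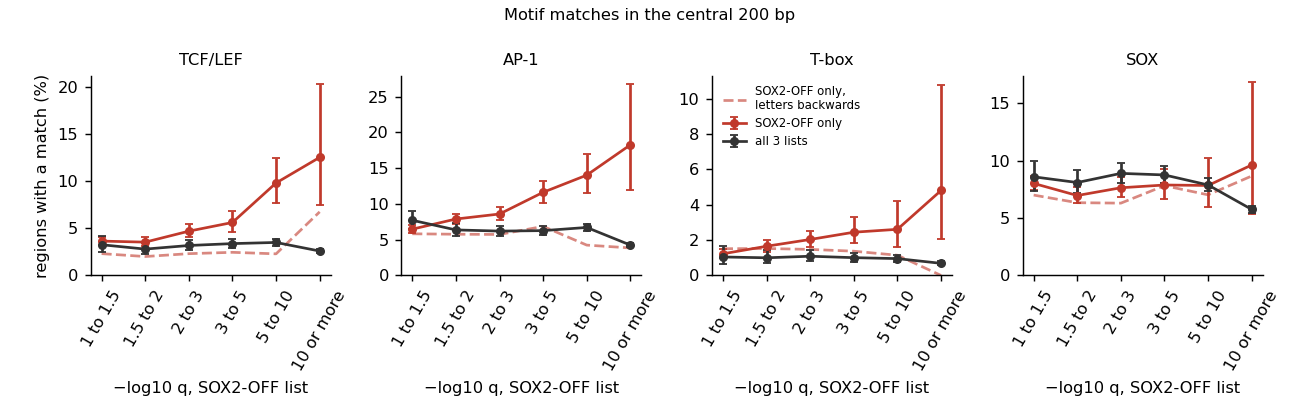
Points give the share of regions (%) with a motif match in the central 200 bp, by −log10 q in the SOX2-OFF list, with Wilson 95% intervals, for members (red) and regions in all 3 lists (black); the dashed line gives members searched with the letters backwards. TCF/LEF rises from 3.63% to 12.5% and AP-1 from 6.47% to 18.3% in members, and SOX stays between 6.96% and 9.62%.

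Set against the members under −log10 q of 2, the strong members had a higher share of 3 of the 16 motifs after the intervals were widened. These were TCF/LEF (10.2% against 3.59%, difference 6.59 points, 3.34 to 11.1), AP-1 (14.6% against 7.06%, 7.58 points, 3.62 to 12.6) and CTCF, the insulator factor (1.39% against 0.305%, 1.09 points, 0.176 to 3.49). The CTCF share rests on 10 strong members and did not keep rising with strength. It was 2.39% between 3 and 5, 1.63% between 5 and 10 and 0 of 104 at 10 or more. The T-box difference of 1.53 points had an interval of −0.0153 to 4.49, and that of POU, the motif of the pluripotency factor OCT4, 1.35 points with −0.0403 to 4.18. The intervals also held 0 for SOX (0.517 points, −2.40 to 4.69), FOXH1, a partner of SMAD proteins in Nodal signalling (−0.110 points, −1.39 to 2.59), CDX/HOX (−0.110 points, −1.39 to 2.59) or GATA (0.823 points, −1.49 to 4.47), and they leave room for differences of a few points. In the comparison at equal strength with regions of all 3 lists, T-box was also higher (2.61% against 0.952%, 1.66 points, 0.146 to 4.84) and CTCF was lower (1.63% against 4.98%, −3.35 points, −4.70 to −0.468). Width was not matched there. Over all strengths the median width was 1351 bp in regions of all 3 lists and 390 bp in members. The part that this played was not tested.

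Several motif shares differed between the members and the regions found only in SOX2-ON. Among regions of −log10 q of 5 or more in their own list, SOX matches were in 8.09% of members and 22.5% of 5280 SOX2-ON-only regions (−14.4 points, −17.9 to −9.94), and GATA matches in 5.44% and 13.3% (−7.84 points, −10.6 to −3.94). TCF/LEF was higher in members by 6.26 points (2.91 to 10.8), AP-1 by 6.88 (2.77 to 12.0), T-box by 2.29 (0.714 to 5.25) and CTCF by 1.21 (0.255 to 3.60). Strength above the threshold was not matched. Of the 5280 SOX2-ON-only regions 2507 reached −log10 q of 10, against 104 of the 717 members, and the part that this played was not tested. Regions that SOX2-OFF shared with CEpiLC alone had shares nearer to those of the members. In 2175 of them at −log10 q of 5 or more, TCF/LEF stood at 8.46% (difference 1.72 points, −2.17 to 6.503) and T-box at 2.80% (0.124 points, −1.96 to 3.23). AP-1 was the exception, at 9.79% against 14.6% in members (4.85 points, 0.307 to 10.2). Over all strengths these shared regions were wider (median 745 bp) than members (390 bp), and the part of width was not tested. Among the 202 CEpiLC-only regions at −log10 q of 5 or more in their own list, TCF/LEF matches were in 0.990% and AP-1 matches in 5.45%, and the differences from members were not tested. Regions shared by SOX2-ON and SOX2-OFF but absent from CEpiLC had TCF/LEF matches in 3.60% of the 1751 at −log10 q of 5 or more in the SOX2-OFF list.

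The matches were concentrated at the middle of the strong members. In the 717 strong members TCF/LEF matches occurred 5.51 times per 100 regions and 100 bp in the central 200 bp and 1.88 times at 300 to 500 bp from the centre, where the 13127 members under −log10 q of 2 had 1.88 and 1.76. AP-1 matches fell from 8.65 to 2.65 in strong members, against 3.85 and 3.31 in the weaker ones. T-box matches fell from 1.46 to 0.453, on only 21 matches in the centre, and SOX matches were level at 4.32 and 4.05. The strong members were also wider (median width 475 bp between −log10 q of 5 and 10, 370 bp in the weakest band), so the window covers less of them.

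**Figure D4:**
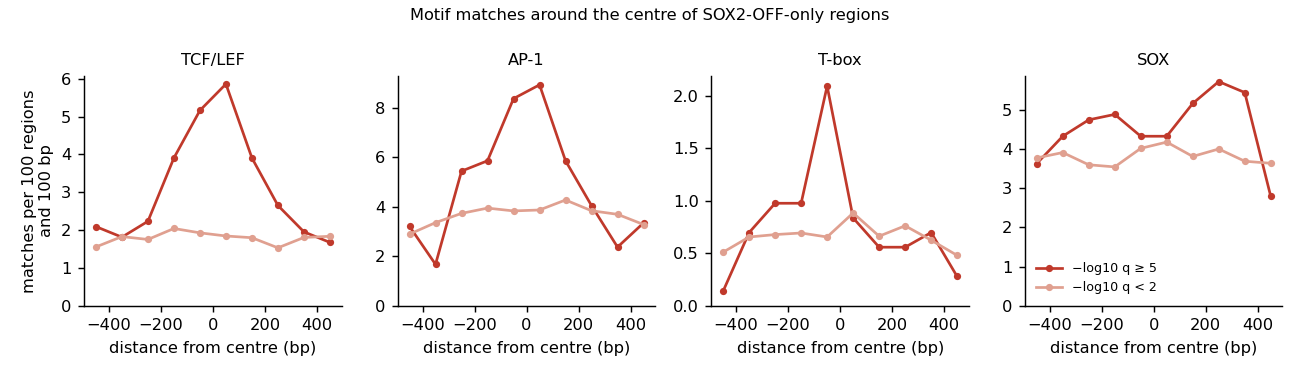
Lines give motif matches per 100 regions and 100 bp against the distance from the centre (bp), in bins of 100 bp, for members with −log10 q of 5 or more (dark) and under 2 (pale). TCF/LEF and AP-1 peak at the centre of the strong members, at 5.86 and 8.93, and stay level in the weak ones; T-box peaks on 15 matches in a single bin, and SOX has no central peak.

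A ranking that used no list of motifs gave words of the same kind. Of 8192 words of 7 bases, with both strands joined, the largest lower bound of the difference between strong members and members under −log10 q of 2 belonged to CCTTTGA, which overlaps the TCF/LEF letters, in 12.0% against 3.93%. ATCAAAG itself ranked 4 (10.2% against 3.59%) and TGACTCA, an AP-1 form, 5 (10.7% against 4.77%). The second word was CAGCAGG (15.5% against 8.04%), which is one of the spellings that the first part of the CTCF motif allows and was less set apart from regions of all 3 lists (11.1%). CAAAGGA, at rank 3, shares CAAAG with both SOX and TCF/LEF (11.9% against 5.04%). ATTTCAC and TGTGAAA, at ranks 6 and 8, hold part of the T-box letters (6.97% against 2.42%, and 8.65% against 4.23%). The intervals behind this ranking were not widened for the number of words.

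Because the strongest of many carriers ranks high for almost any motif, the strongest carriers of several other motifs are named only as a description. That of POU lay in an intron of the integrin gene Itga9 (fold 2.46, −log10 p 17.2), that of FOXH1 and OTX/GSC in an intron of Sema3a (2.36 and 16.1), that of TEAD in an intron of Lgals3 (2.03 and 12.9), that of CTCF 27517 bp from the start of Lacc1 (2.08 and 10.7), that of SMAD 12401 bp from Vmn2r11 (2.11 and 11.8) and that of ESRRB in an intron of Smyd2 (1.55 and 9.13). The strongest carrier of the T-box motif overlapped Pard6g, a polarity gene on chromosome 18 (2.06 and 14.3).

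Members lay around most genes of any kind. Of 17016 protein-coding genes on these autosomes, 12656 (74.4%) had a member in the gene or within 50 kb, with a median of 2, and 2966 (17.4%) had one with −log10 q of at least 3. Against this background the share of listed genes with a member said little. Only listed genes on the 16 autosomes were counted. These were 8 of 12 caudal, 7 of 10 naive and 10 of 18 WNT genes, without for example Hoxb9, Nanog, Klf2 and Axin2. A member was found at 7 of 9 early streak and mesendoderm genes, 14 of 15 Nodal pathway genes, 10 of 14 anterior and cardiac mesoderm genes, 7 of 8 caudal epiblast and paraxial mesoderm genes, 5 of 7 naive pluripotency genes, 4 of 8 anterior epiblast and neural genes and 7 of 10 WNT target and TCF/LEF genes. It was also found at 6 of 10 fibroblast, 6 of 8 immune and 7 of 10 liver genes, which were included as lists of other cell types. The medians of members per gene were 2 in the early streak, Nodal and WNT lists, 1.5 in the caudal and liver lists, 1 in the cardiac, naive, fibroblast and immune lists and 0.5 in the neural list.

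With members of −log10 q of at least 3, found at 17.4% of all coding genes, the counts separated more, on few genes. They were 4 of 9 in the early streak list, 3 of 10 in the WNT list, 3 of 10 in the fibroblast list, 2 of 15 in the Nodal list, 1 of 8 in the caudal list, 1 of 8 in the immune list and 0 in the cardiac, naive, neural and liver lists. Windows of neighbouring genes can share a member, as those of Mesp1 and Mesp2, and of Pdgfrb and Csf1r, do.

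In the early streak list the strongest member was 2735 bp downstream of Gata4, a zinc-finger factor of endoderm and heart, at chr14:63195916-63196186 (fold 1.63, −log10 p 8.15). Near Foxa2, a forkhead factor of endoderm and axial mesoderm, it lay 29111 bp downstream (chr2:148013540-148013765, 1.81 and 6.69). At Mixl1, a homeobox gene of the streak, it lay 929 bp downstream of the gene (chr1:180691845-180692113, 1.66 and 6.498), and 4 members fell in its window of 11 SOX2-OFF regions. Gsc had 5 members among 17 SOX2-OFF regions, of which 2 reached −log10 q of 3, and the strongest was the one printed above with 2 T-box matches (1.77 and 6.24). Eomes had 2, the stronger with −log10 p of 4.38, and no member lay around Nodal or Cer1, a Nodal antagonist. Over the windows of the whole list, 19 of 104 SOX2-OFF regions (18.3%) were members, near the 18.8% around all coding genes. The share was higher in the fibroblast (27.7%), liver (27.5%) and immune (25.9%) lists.

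In the WNT list the strongest 2 members stood inside genes of TCF/LEF factors. The window of Tcf7l2 held 5 members among 28 SOX2-OFF regions, and the strongest lay in an intron (chr19:55874947-55876100, fold 2.02, −log10 p 9.81). That of Lef1 held 6 among 37, and the strongest lay over an annotated exon (chr3:131154752-131156596, 1.72 and 7.31) with an AP-1 match. Over the windows of the whole list, 27 of 157 SOX2-OFF regions (17.2%) were members, near the 18.8% around all coding genes. The next strongest members of the list were 7124 bp downstream of the ligand gene Wnt8a (1.60 and 5.29) and 32504 bp upstream of Ctnnb1, which encodes β-catenin (1.60 and 4.25). Dkk1, Wnt5a and Rspo3, which encode secreted regulators of the pathway, had none.

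Elsewhere a few members stood out. Msgn1, a bHLH gene of paraxial mesoderm, had the strongest member of any listed gene, 23404 bp upstream (chr12:11232377-11232912, fold 2.01, −log10 p 9.99). The other 6 caudal genes with a member had none above −log10 p of 4.12, which was the value at Cdx1, and T had 1, inside the gene (1.39 and 3.404). In the Nodal list the values ran from 2.83 at Lefty2 to 5.17 at Foxh1, with 4.85 at Smad4, 4.62 at Smad7 and 4.55 at Smad3. In the cardiac list the highest were Tbx20 (4.72), Pdgfra (4.33) and Kdr (3.67), in the naive list Klf5 (4.23) and Prdm14 (3.74) and in the neural list Pou3f1 (3.58) and Pax3 (3.47). In the fibroblast list Col5a2, a collagen gene, had a member in an intron (1.81 and 6.93) and Dcn, which encodes decorin, a member with a TCF/LEF match 22317 bp upstream (1.76 and 6.17). The highest values in the immune and liver lists were at Itgam (5.30) and Hpx (3.71).

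**Figure D5:**
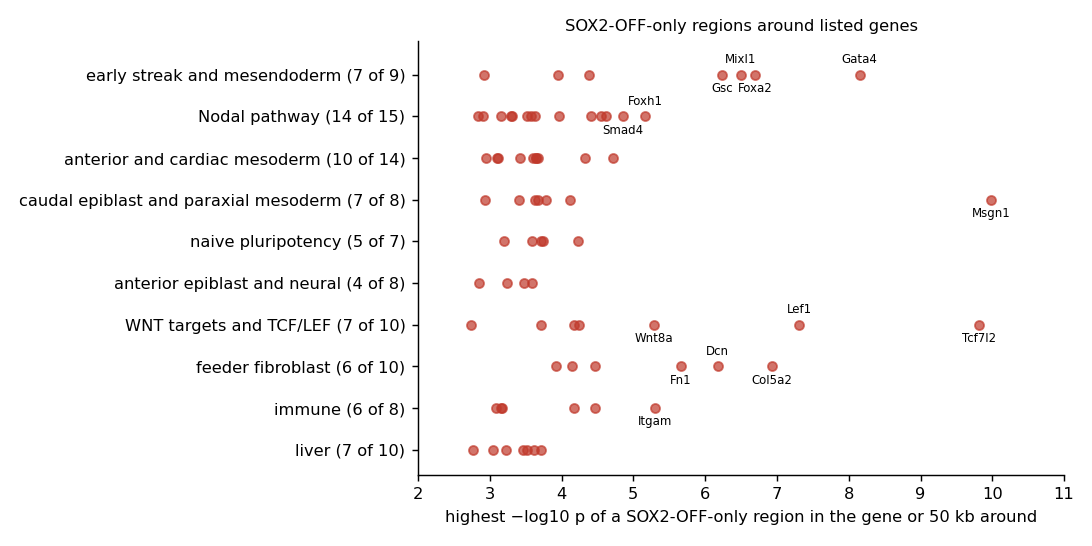
Each point is a listed gene with a member in the gene or 50 kb around it, placed at the highest −log10 p among those members; the counts beside each list give genes with a member of those measured, and genes with a member of −log10 q of at least 3 are named. The values reach 9.99 at Msgn1, 9.81 at Tcf7l2 and 8.15 at Gata4, and lie under 5 for all cardiac, naive, neural and liver genes.

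The members were spread over all chromosomes used. Their density ran from 7.03 per Mb on chromosome 19 to 11.1 on chromosome 5, with a median of 9.23, and they made up 16.8% (chromosome 19) to 27.7% (chromosome 3) of the SOX2-OFF regions. Of 2070 windows of 1 Mb, 1934 held a member, with a median of 8. The densest lay on chromosome 13 at 118000001 to 119000000, which holds Fgf10, with 42 members of 78 SOX2-OFF regions. On chromosome 5 the windows from 140000001 (with Lfng, a modifier of Notch receptors, and Gna12) and from 146000001 (with Cdk8 and Wasf3) held 41 of 142 and 40 of 111, that on chromosome 14 from 120000001 (with Mbnl2) 36 of 79 and that on chromosome 4 from 107000001 (with Ssbp3 and Glis1) 35 of 125. The genes with the most members within 50 kb were Fgfr2 (47 of 234 SOX2-OFF regions), Pde4d (42 of 88), Lrrc7 (27 of 42), Rere (25 of 85) and Adgrl2 (24 of 46). Over all SOX2-OFF regions the share of members was 22.4%. The longest of these windows, that of Fgfr2, covered 3.06 Mb as annotated.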

How the data were processed

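Accessible chromatin was profiled by ATAC-seq in 3 mouse samples, with a single library for every condition. According to the methods, the authors ran nf-core/atacseq 1.0.0 (adapter trimming, BWA alignment to mm10, filtering) and called broad peaks with MACS2 in each library. The deposited lists give for each peak a score, a fold enrichment (a ratio of pileup to background), a −log10 p-value and a −log10 q-value. The score is derived from the significance and was not used further. The extension and shift settings were not given in the sources used here, and neither was read depth. Such lists hold no values for regions under the calling limit, so absence from a list means not called.

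The lists were merged with bedtools 2.31.1. Positions came from GENCODE M21, counting starts of all annotated transcripts, and sequence from RefSeq GRCm38, in which repeats are soft-masked. Windows were centred on the midpoint of the SOX2-OFF peak, the strongest where a region held several. Regions without a SOX2-OFF peak, such as those only in SOX2-ON, were centred on the midpoint of the merged region. The motifs and copies (blastn 2.17.0) were searched on both strands. Shares carry Wilson intervals and differences Newcombe intervals at 95%, widened in the motif comparisons. The steps were tested on simulated data. Regions named are the 10 strongest members, the 3 strongest of each position, the strongest near up to 4 genes of each list, the strongest carrier of each motif and the 5 densest windows. Eomes, T, Lefty2, the genes with no member and those with the most members were named in addition, after their values were seen. The members, motifs and gene lists were chosen with earlier results of these data known, and the threshold of −log10 q of 5, the word ranking, coding starts only and the copy search were added after the data were seen. A region that this rule picks is not reported here. The concentration of CHIR99021 is not given because its sources differ.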

Additional observations from a re-analysis of the deposited data

Results flagged for a closer look

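Chromosomes 6 and 8 were left out of the members but held far more regions covered only by SOX2-OFF than any chromosome used. There were 7412 on chromosome 6 (49.5 per Mb) and 5411 on chromosome 8 (41.8 per Mb), against at most 11.1 per Mb on the 16 autosomes used. SOX2-OFF regions of every kind were also more numerous there, with 20031 and 15763, against 7208 on the longer chromosome 1. Those covered only by SOX2-OFF made up 37.0% and 34.3% of them, against 16.8% to 27.7% on the chromosomes used. On chromosome 11, also left out, there were 813 (6.66 per Mb). These regions entered no comparison above.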

How the results depend on the processing

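No paired analysis was possible because a group holds just 1 sample, and no replicate could be left out. The number of members was 12011 when only peaks with −log10 q of at least 2 in every list were merged, 6636 at 5 and 32892 on all autosomes, and it stayed within 1.5 times the main count in the other alternatives, a merging gap of 500 bp and regions with under 10% of their SOX2-OFF bases covered. Among members of −log10 q of at least 2, 9.20% lay within 1 kb of a start, 40.9% in introns and 40.8% between genes, the median GC was 47.5% and the median soft-masked share 11.5%, which was also 11.5% over whole regions. Within 5 kb of a start lay 30.6% of members, within 1 kb of a protein-coding start 6.31%, and within 5 kb of a peak of another list 63.6%.

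Over all members TCF/LEF matches were in 8.13% of central 400 bp windows, 5.58% at −log10 q of at least 2, 10.2% at 5 and 2.25% with letters backwards. The same 4 values were 15.5%, 10.1%, 14.6% and 5.82% for AP-1 (8.54% outside mostly soft-masked windows) and 3.05%, 2.25%, 2.93% and 1.47% for T-box. For SOX they were 14.3% at 400 bp, 8.09% at 5 and 6.75% backwards. In strong members the backward letters gave 2.93%, 4.18% and 0.976% for TCF/LEF, AP-1 and T-box, and the 400 bp windows 17.2%, 22.9% and, for SOX, 16.6%. Their shares of the 4 motifs outside mostly soft-masked windows, beyond 1 kb of a start and beyond 1 kb of another list stayed within the main intervals. Members of −log10 q of at least 2 were found at 40.4% of all coding genes. They were at 6 of 15 Nodal, 3 of 14 cardiac, 4 of 8 caudal, 3 of 7 naive and 0 of 8 neural genes. The counts were 3 of 8 in the immune list, 1 of 10 in the liver list, 6 of 9 in the early streak list and 6 of 10 in both the WNT and fibroblast lists. With windows of 20 kb, where 56.3% of all coding genes had a member, the cardiac list had 4 of 14. The lack of replicates and the unknown read depth limit every value here.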
